A study of Mus musculus with 4 samples.

Results

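Homeobox, Pax, Pou and Fox genes encode transcription factors that pattern the embryo, and the array carried 126 probe sets for 102 of them, out of 10855 probe sets for 8252 genes with 1 gene symbol. They were chosen by symbol alone: Hox of the 4 clusters, Pax, Lhx, Dlx, Six2 to Six6, Nkx, Otx, Emx, Pou and Fox. The choice by the start of the symbol also took in antisense or opposite-strand transcripts (Dlx1as, Dlx6os2, Hoxa11os) and Pou2af1, a B cell coactivator of Pou factors, which together account for 7 of the probe sets. A further 3 probe sets that name several genes at once were left out.

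The RNA came from hippocampal CA1 of young male mice of the C57BL/6J strain. All 4 samples are controls that were only handled. They carry no allele or agent, and they differ in the hour of extraction, which was 1, 2, 4 or 6 hr after the last shock of other mice that are not analysed here. There is 1 array for each hour and no replicate at any hour. How many animals gave RNA to an array is not stated in the sources used here.

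Homeodomain proteins bind short AT-rich sites, and Pou proteins add a second DNA-binding domain. Pax proteins carry a paired domain, not always with a full homeodomain, and Fox proteins bind through a forkhead domain instead. Forebrain members such as Lhx, Dlx, Pax6 and Pou3f genes set up cortex, hippocampus and interneurons, and several stay on in adult neurons. Hox genes give hindbrain, spinal cord and trunk their position along the body axis and are classically silent in the forebrain. They served here as a background reference on these arrays, a role taken from textbook knowledge and not from these data.

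A pair of forebrain genes and a pair of Hox genes lie on the same chromosome, and their upstream sequences are shown because the first pair read above the floor used for these arrays (the 25th percentile of all values) on all 4 of them, and the second under it on all 4. The sequences are from RefSeq (GRCm38.p6), 150 bases up to the transcription start, read 5′ to 3′ on the gene's strand, with each CpG dinucleotide in capitals. Dlx1 is at chr2:71529295-71529444 on the plus strand, Dlx2 at chr2:71546755-71546904 on the minus strand, Hoxd12 at chr2:74674863-74675012 and Hoxd13 at chr2:74668075-74668224, both on the plus strand.
Dlx1: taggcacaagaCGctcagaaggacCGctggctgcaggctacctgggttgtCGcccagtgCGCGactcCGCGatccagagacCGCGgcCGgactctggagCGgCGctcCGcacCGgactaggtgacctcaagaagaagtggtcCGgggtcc
Dlx2: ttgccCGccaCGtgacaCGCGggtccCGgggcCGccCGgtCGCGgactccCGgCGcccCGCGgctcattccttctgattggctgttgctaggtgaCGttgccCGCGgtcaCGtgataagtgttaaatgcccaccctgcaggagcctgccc
Hoxd12: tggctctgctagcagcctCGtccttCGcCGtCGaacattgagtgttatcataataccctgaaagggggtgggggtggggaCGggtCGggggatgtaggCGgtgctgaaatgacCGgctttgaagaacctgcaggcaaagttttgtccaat
Hoxd13: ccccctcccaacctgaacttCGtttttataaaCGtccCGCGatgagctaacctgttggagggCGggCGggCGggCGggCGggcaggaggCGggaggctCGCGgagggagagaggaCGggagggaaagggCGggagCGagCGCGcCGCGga
The stretches hold 15 CpGs for Dlx1 and 17 for Dlx2, and 8 for Hoxd12 and 19 for Hoxd13. Over the windows of 300 bases that surround the start, 83 windows of 69 members had a median of 16 CpGs, against 7 over all 32851 windows. The median was 17 in the 17 windows of forebrain members and 15 in the 23 windows of Hox genes. In 73 of the 83 member windows (88.0%) the count was above the median of all windows. The letters TATAAA, searched on both strands, were in 8 member windows (9.64%) and in 13.6% of all windows. The letters TAATTA, a core that many homeodomains bind and that reads the same on both strands, were in 4 member windows (4.82%) and in 5.29% of all. CpG-rich starts were thus shared by forebrain and Hox members, whose readings on the arrays are given next.

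A floor was set at 54.6, the 25th percentile of all deposited intensities, and values under it were given no order. Readings of different probe sets depend on their probes as well as on the RNA, so each probe set is set only against the floor and against itself on other arrays. Of the 126 member probe sets, 51 were above the floor on all 4 arrays (40.5%), where 61.5% of all non-control probe sets were. A further 28 were under it on all 4 (22.2%, against 11.5%), and 47 crossed it. A probe set is called steady here when its 4 values were above the floor and the highest was at most 2 times the lowest. This held for 22 members (17.5%), against 46.6% of all non-control probe sets. Among those above the floor on all 4 arrays it held for 22 of 51 (43.1%), against 75.8%. In bulk RNA, fewer cells that express a gene and less RNA per cell cannot be told apart.

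**Figure D1:**
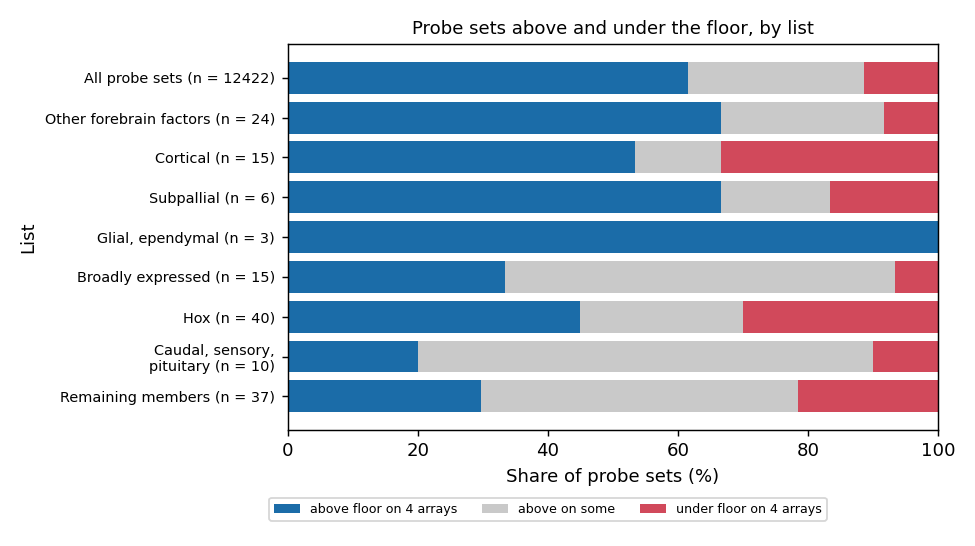
Horizontal bars give the share of probe sets (percent) in each list that were above the floor on 4 arrays, on some or on none, with the number of probe sets n beside each name. Hox probe sets were above the floor on all 4 arrays in 18 of 40, forebrain probe sets in 8 of 15 (cortical) and 4 of 6 (subpallial), and all probe sets in 61.5%.

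Cortical and hippocampal members were a mixture of steady probe sets and probe sets at the floor. Of 15 probe sets for 10 genes, 8 were above the floor on all 4 arrays, 5 were steady and 5 were under the floor throughout. Pou3f1, a Pou factor enriched in CA1 pyramidal neurons, read 462, 427, 613 and 551 at 1, 2, 4 and 6 hr, with a highest value 1.44 times the lowest. Foxp1, a forkhead repressor of forebrain projection neurons, was steady through both of its probe sets. They read 572, 457, 557 and 717, and 401, 313, 387 and 362, and both were lowest at 2 hr. Pou3f3, a relative of Pou3f1 in upper-layer and hippocampal neurons, read 114, 101, 124 and 107, a mean of 111 ± 9.90 (SD, n = 4 arrays). It was among the narrowest, with a 1.23-fold range, although its level was too low to pass the filter for testing.

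Pou6f1, a brain Pou factor, showed how far the probe sets of 1 gene can diverge. One read 571, 1356, 1100.0 and 1005, lowest at 1 hr and highest at 2 hr. A second, with the suffix _r that marks relaxed probe selection, read 161, 58.9, 137 and 128, lowest at 2 hr. The third was under the floor at 1, 2 and 4 hr and read 112 at 6 hr. The 3 probe sets thus gave 3 different orders of the arrays.

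Pax6, the paired-domain factor of radial glia and neural progenitors, read 188, 99.5, 195 and 106. Its values fell into a high pair at 1 and 4 hr and a low pair at 2 and 6 hr. Lhx1, a LIM homeodomain gene of Cajal-Retzius cells and hindbrain, did likewise over a wider range, at 256, 93.2, 318 and 132. Pou3f2, also known as Brn2, was under the floor at 1 hr and read 199, 200 and 100.2 at 2, 4 and 6 hr, at least 3.66-fold between highest and lowest. Lhx5, Lhx9 and Six3, factors of early forebrain and diencephalon, were under the floor on all 4 arrays through all 5 of their probe sets.

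Subpallial members, which specify interneurons, were above the floor on all 4 arrays for Lhx6, Dlx1, Dlx2 and Dlx5, that is 4 of 6 probe sets. Lhx6, the LIM homeodomain factor of Sst and Pvalb interneurons, read 386, 406, 522 and 526, a mean of 460 ± 74.4 (SD, n = 4 arrays), and was steady with a 1.36-fold range. Dlx2 read 142, 149, 83.1 and 144, so that 3 arrays lay together and the 4 hr array was lowest. Its neighbour Dlx1 read 197, 422, 332 and 291, lowest at 1 hr, and Dlx5 read 153, 109, 158 and 223, highest at 6 hr. Dlx6 was under the floor at 6 hr and otherwise read 79.1, 61.3 and 198, and Lhx8, a gene of cholinergic neurons, was under the floor throughout. The Dlx genes therefore had no common order over the arrays.

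The opposite-strand transcripts of this family were read by probe sets of their own. Dlx1as was under the floor at 1 hr, where Dlx1 was also lowest, and read 113, 156 and 83.9 at 2, 4 and 6 hr. One Dlx6os2 probe set read 167, 104, 117 and 135 and the other was above the floor only at 1 hr, at 84.4. Whether probe sets tell a gene from its opposite-strand partner was not tested. The 11 inhibitory neuron genes listed as markers, Lhx6 among them, were above the floor on all 4 arrays through all 13 of their probe sets. Their summed level was 35083, 35899, 38484 and 33709 at 1, 2, 4 and 6 hr, and Gad1, which makes GABA, read 3638 to 4730. That sum rests on its brightest probe sets, of Cck and Sst, which read 11337 to 13694 and 7309 to 9380. Of the 13 probe sets 11 were steady, and Calb2, which was not, read 146, 327, 246 and 433. The part of interneuron content in the Dlx and Lhx6 values was not tested.

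**Figure D2:**
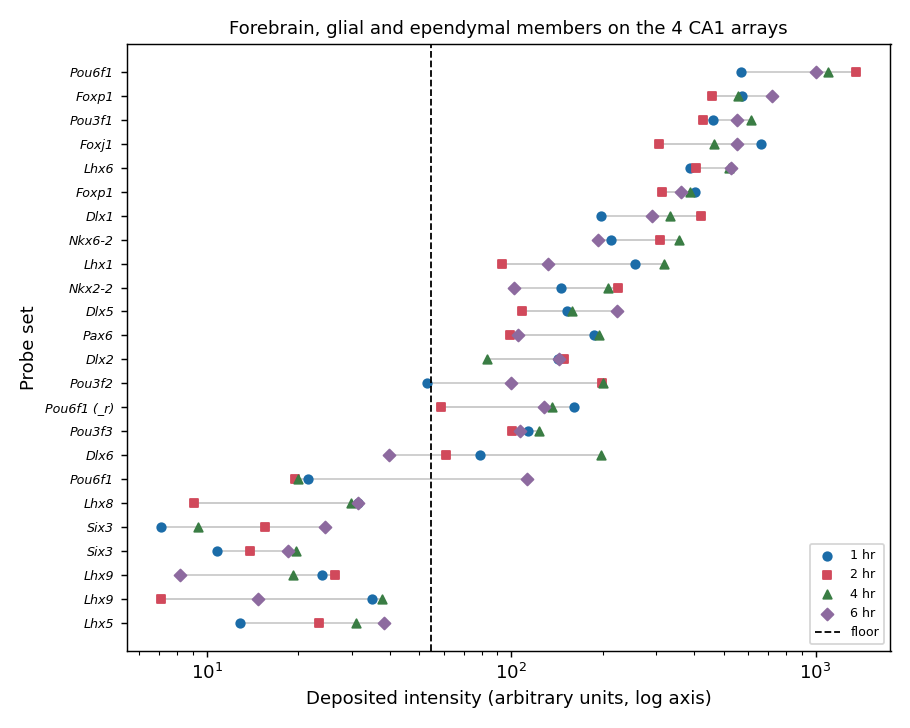
Each row is a probe set of a cortical, subpallial, glial or ependymal member, ordered by mean level, and each symbol is the deposited intensity on 1 of the 4 arrays (log axis, arbitrary units), with the floor of 54.6 as a dashed line. Pou3f1, Foxp1, Lhx6 and Pou3f3 form tight clusters above the floor, Pou3f2 and Dlx6 cross it, and both Lhx9 and both Six3 probe sets lie under it on all arrays.

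The glial and ependymal members, Foxj1, Nkx6-2 and Nkx2-2, were above the floor on all 4 arrays. Foxj1, the master regulator of motile cilia in ependyma, read 662, 305, 464 and 553, lowest at 2 hr. The choroid plexus and ependyma markers, a list of 7 probe sets that includes Foxj1, summed to 1513, 1122, 4340 and 1379. Ttr, the main secreted protein of choroid plexus, read 140.3, 140.3, 3217 and 196, highest at 4 hr. Folr1, a folate receptor of choroid plexus, read 278, 120, 206 and 214, in the same order over the arrays as Foxj1, while its _f probe set was above the floor only at 4 hr, at 56.6. Kl had another order, at 54.8, 370, 266 and 247, lowest at 1 hr. One Aqp1 probe set read 317, 158, 118 and 106, lowest at 6 hr, and its other one was under the floor on all 4 arrays. Of that list 5 probe sets were above the floor on all 4 arrays and 0 were steady, and its part in the Foxj1 values was not tested.

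Nkx2-2 and Nkx6-2, homeodomain factors of the oligodendrocyte lineage, were ordered alike at their low end. Nkx2-2 read 146, 224, 209 and 102, and Nkx6-2 read 213, 310 and 357 at 1, 2 and 4 hr and 192 at 6 hr. Both were lowest at 6 hr and next lowest at 1 hr, and Nkx6-2 was steady with a 1.85-fold range. Oligodendrocyte markers, 14 probe sets of which 13 were above the floor on all 4 arrays, summed to 29340, 27262, 26383 and 21831, lowest at 6 hr. That sum rests on its brightest probe sets, of Mobp and Mbp, which read 14207 and 7638 at 1 hr and 9821 and 5729 at 6 hr. By probe set, 5 of 13 with a lowest array were lowest at 6 hr and 4 at 2 hr, so the list had no common order, and the part of oligodendrocyte content in the Nkx values was not tested.

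Hox genes, the posterior reference, were not uniformly at the floor. Of 40 probe sets for 32 genes, counting the opposite-strand Hoxa11os, 12 were under the floor on all 4 arrays (30.0%), 10 crossed it and 18 were above it on all 4 (45.0%). The share of single values under the floor was 43.1% for Hox, 34.5% for the 21 forebrain probe sets and 24.96% for all non-control probe sets. Steady probe sets were 7 of 40 Hox (17.5%) and 7 of 21 forebrain (33.3%), against 46.6% of all. Within probe sets above the floor on all 4 arrays they were 7 of 18 Hox (38.9%) and 7 of 12 forebrain (58.3%), against 75.8%. Both lists were therefore below the share over all probe sets, and the difference between them was not tested, since genes are not replicates. Leaving out 1 array moved the steady Hox count to 12 (without 2 hr), 13 (without 4 hr) or 11 (without 6 hr), and the forebrain count to 11 without 2 hr. Without the 4 hr array the shares were 33.3% for forebrain and 32.5% for Hox, against 52.4% of all.

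Among the paralogue groups, Hox genes for the posterior end of the axis had the largest share of values under the floor. In paralogue groups 9 to 13, which act in lumbar, sacral and limb regions, 37 of 56 values were under the floor (66.1%) and 2 of 14 probe sets were above it on all 4 arrays. In groups 1 to 4, which act in hindbrain and neck, 16 of 48 values were under it (33.3%), and in groups 5 to 8, of the thorax, 16 of 56 (28.6%). By cluster the share was 42.2% for Hoxa, 32.5% for Hoxb, 15.0% for Hoxc (5 probe sets) and 72.2% for Hoxd. Over all non-control probe sets it was 24.96%. Groups 9 to 13 take in Hoxd11, Hoxd12 and Hoxd13, while the _r probe sets of Hoxa4, Hoxa6 and Hoxb8 lie in groups 1 to 8. Paralogue group, cluster and kind of probe set therefore overlap, and their parts in these shares were not tested. Hoxd11, Hoxd12 and Hoxd13 were under the floor on all 4 arrays, and Hoxd12 read 7.5, 4.3, 5.5 and 7.2. Hoxa7, Hoxa10, Hoxa13, Hoxb4 and Hoxb9 were also under it throughout.

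The 3 Hox probe sets first by mean level all carried the suffix _r. The one for Hoxa4, a cervical patterning gene, read 1738, 912, 1067 and 1168, while its other 3 probe sets gave no such readings. Those read 165, 91.3, 88.4 and 74.9 (also _r), then 60.3, 75.4, 222 and 74.7, and the last, with the suffix _f for sequence families, was under the floor on all 4 arrays. Hoxb8, a gene of thoracic identity that is also used in blood cells, read 549, 319, 619 and 546 through its _r probe set. Its _s probe set, of a kind shared between transcripts, was above the floor only at 1 hr, at 69.9. Hoxa6 read 192, 302, 272 and 399 through its _r probe set and was under the floor on all 4 arrays through its _f probe set. None of the 4 Hox probe sets with _r had a value under the floor, against 50 of 116 values for the 29 without a suffix (43.1%). Over all 8 member probe sets with _r, 7 of 32 values were under it (21.9%), all of them outside the Hox genes. The share was 41.4% for all members without a suffix.

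Other Hox probe sets, without such a suffix, also held their readings above the floor. Hoxa2, the Hox gene with the most anterior limit, in the hindbrain, read 216, 199, 226 and 184, a mean of 206 ± 18.6 (SD, n = 4 arrays) and a 1.23-fold range. Pou3f3 had a like range, so a narrow spread over arrays was found in both a forebrain and a Hox gene. Hoxd8 read 170.0, 256, 251 and 196 through one probe set, and its second was above the floor only at 6 hr, at 56.2. Hoxb7 read 194, 172, 306 and 292, and Hoxc8, of the thoracic spinal cord, read 206, 146, 237 and 123. Hoxb6 read 299, 136, 235 and 326, Hoxb1, of rhombomere 4, read 203, 155, 291 and 131, and Hoxc5 read 245, 90.5, 249 and 203. Hoxb6 and Hoxc5 were lowest at 2 hr, and Hoxb1 and Hoxc8 at 6 hr.

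The remaining Hox probe sets above the floor on all 4 arrays were dimmer and did not enter the test. Hoxa5, of the neck and lung, read 142, 81.2, 146 and 81.6, which repeats the pairing of 1 with 4 hr and 2 with 6 hr seen in Pax6. Hoxb3 did so as well, at 124, 71.5, 143 and 76.2. Hoxb5 read 91.2, 66.9 and 90.2 at the first 3 times and 226 at 6 hr, and Hoxc4 read 69.8, 67.7, 143 and 118. Hoxa9, a gene of lumbar identity and blood progenitors, read 77.9 and 129 at 1 and 4 hr and was lowest at 6 hr, at 57.4. One probe set of Hoxa11os read 65.1, 122, 131 and 79.0, and its other one was under the floor on all 4 arrays.

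**Figure D3:**
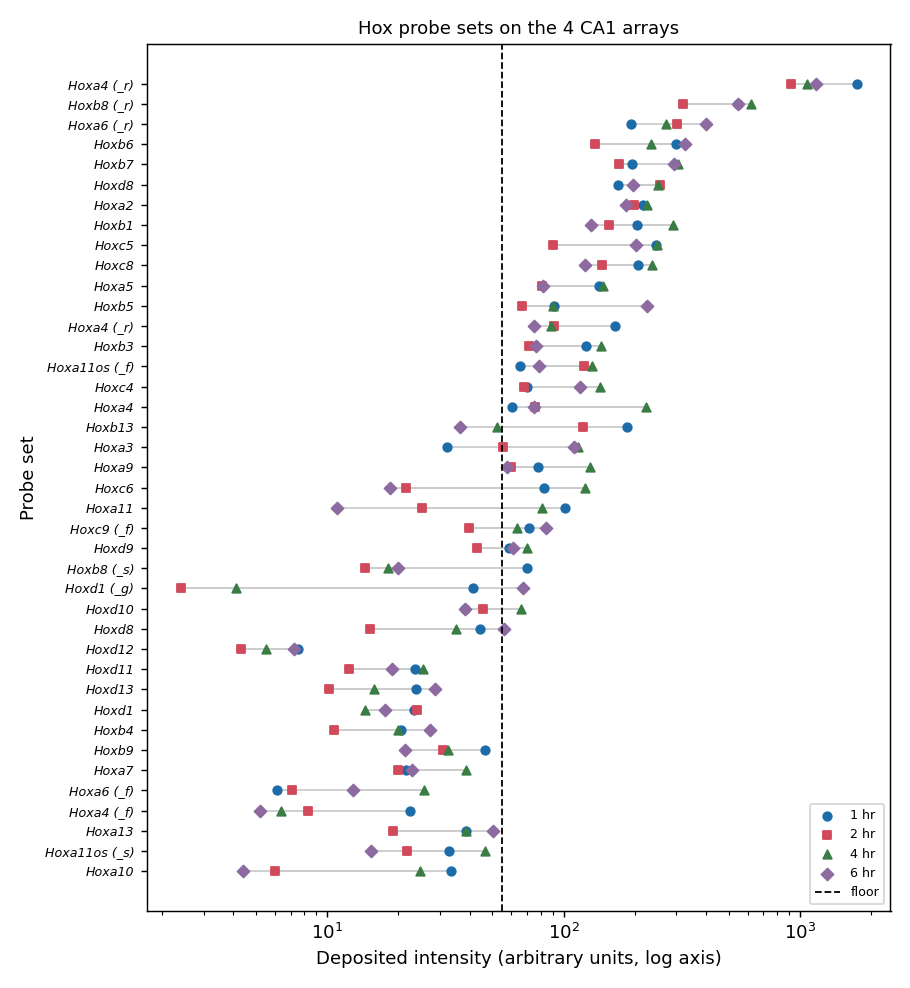
Each row is a Hox probe set, ordered by mean level with its suffix in brackets, and each symbol is the deposited intensity on 1 of the 4 arrays (log axis, arbitrary units), with the floor of 54.6 as a dashed line. The top 3 rows are the _r probe sets of Hoxa4, Hoxb8 and Hoxa6, 18 of 40 rows lie wholly right of the line and 12 wholly left of it.

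Members with broad expression were above the floor on all 4 arrays in 5 of 15 probe sets (33.3%), against 61.5% of all, and 9 crossed it. Steady probe sets were 3 of 15 (20.0%), against 46.6% of all, and these were of Foxo4, Foxo3 and Foxk2. Foxo4 and Foxo3, forkhead factors under control of insulin signalling, read 1349, 939, 1357 and 1146, and 534, 617, 495 and 610. Foxk2, a broadly expressed forkhead factor, read 723, 846, 699 and 708 through one probe set, a 1.21-fold range. Its second read 148, 67.1, 69.4 and 70.5, higher at 1 hr than at the other times. Foxm1, a factor of dividing cells, read 410.4, 299, 723 and 470 through a probe set with the suffix _g and was under the floor throughout in the other. Six4 was under the floor at 1 hr and read 130, 197 and 122 through its _g probe set, which stood apart below at 1 hr. Its other probe sets were above the floor at 1 and 2 hr only (55.0 and 76.1), and at 6 hr only (72.5).

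Members of the caudal brain, sensory organs and pituitary were above the floor on all 4 arrays in 2 of 10 probe sets (20%), against 61.5% of all. Steady probe sets were 0 of 10, against 46.6% of all. Pax5, of the midbrain-hindbrain boundary and B cells, read 174, 155, 123 and 352, highest at 6 hr, and its second probe set was above the floor only at 1 hr, at 86.7. Six2, counted in this list though also a gene of kidney progenitors, read 454, 83.3, 205 and 103. Its range was 5.45-fold, with the 1 hr array highest. Lhx3, a pituitary and motor neuron gene, read 200 at 1 hr and was under the floor at the other times. Of the 10 probe sets 7 crossed the floor between arrays.

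The remaining 37 probe sets, mostly of genes for other organs, were above the floor on all 4 arrays in 11 (29.7%), against 61.5% of all. Of the 37, 4 were steady (10.8%), against 46.6% of all. The 37 also hold the opposite-strand Dlx1as and Dlx6os2 given above, and a Dlx6os2 probe set was among the 4. Foxl1, of gut mesenchyme, read 364, 315, 444 and 470.1, and Pou2f3, of epidermis and tuft cells, read 369, 254, 379 and 271. Foxd2 read 307, 371, 234 and 553, Pax4, of pancreatic islets, read 305, 218, 128 and 384, and Nkx1-2 read 222, 125, 364 and 248. Foxc2, of vessels and mesenchyme, read 170, 110, 177 and 57.4, and its _f probe set was above the floor only at 6 hr, at 78.4. Pax1, of the vertebral column, read 195, 81.6, 154 and 86.2. Both probe sets of Pou2af1 were under the floor on all 4 arrays, and so were those of Dlx4, Foxa3, Foxb1, Foxc1, Foxf1 and Nkx2-6.

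**Figure D4:**
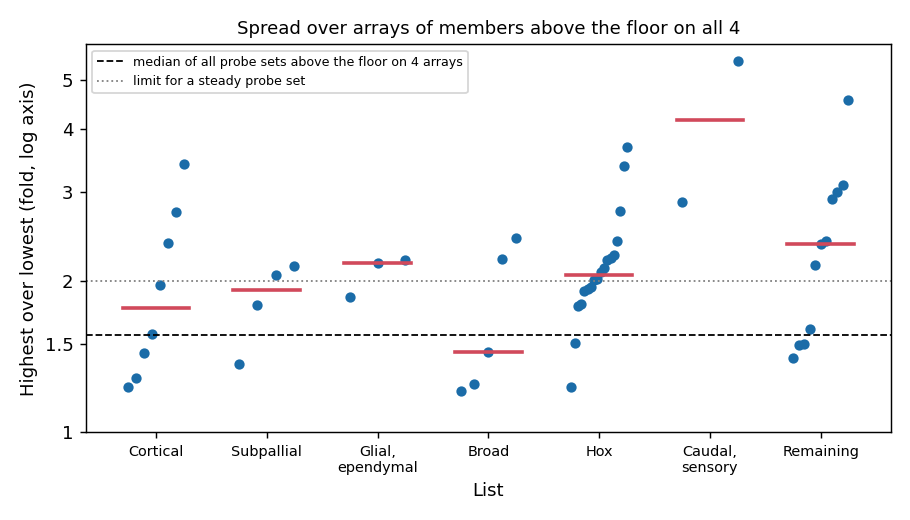
Each point is a member probe set above the floor on all 4 arrays, and its height is the highest over the lowest of its 4 values (fold, log axis). Red bars are list medians, 1.77 for cortical, 1.92 for subpallial and 2.05 for Hox members, and the dashed line is the median of 1.56 over all such probe sets.

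No tested member passed the test of a straight line over the hour of extraction, and nor did any other probe set of the fit, which has 2 residual degrees of freedom. Of the 126 member probe sets 39 passed the filter on mean level, 11 of them forebrain and 10 Hox, and none (0) had an adjusted p under the threshold in limma with Benjamini-Hochberg adjustment over all 7453 probe sets tested (background 0% called). The smallest adjusted p among members was 0.973, and 0 members had an unadjusted p under 0.05, against 5.13% of all tested probe sets. The remaining members were not tested. Ordinary least squares also gave 0 members at either threshold, while other alternatives gave up to 3 members at an unadjusted p under 0.05 (3 without the 2 hr array, 2 with no filter) and 0 after adjustment. Slopes were above 0 in 24 of 39 members (61.5%), where 50.9% of all tested probe sets were, and their median slope was 0.020 log2 units per hr against 0.002. In forebrain members 8 of 11 slopes were above 0 and in Hox members 6 of 10.

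The 3 members of smallest unadjusted p in each direction follow as values, since none passed. The limma slope, in log2 units per hr, was 0.17 ± 0.08 for Hoxa6 (SE; adjusted p = 0.973), 0.16 ± 0.07 for Hoxb7 and 0.15 ± 0.08 for Dlx5. In the other direction the slope was -0.23 ± 0.12 for Foxc2, -0.25 ± 0.20 for Six2 and -0.12 ± 0.11 for Nkx2-2. Leaving out 1 array moved the slope of Hoxa6 to 0.10 (without 1 hr), that of Hoxb7 to 0.25 (without 6 hr) and that of Dlx5 to 0.26 (without 1 hr) or 0.053 (without 6 hr). Those of Foxc2 and Nkx2-2 turned to 0.068 and 0.14 without the 6 hr array, and that of Six2 to 0.076 without the 1 hr array. As no source names separate animals, these errors rest only on the scatter of the 4 arrays about a line, which may be technical. In limma each error is also drawn toward the scatter common to all tested probe sets. The SE of ordinary least squares was 0.30 for Six2, 0.17 for Foxc2, 0.14 for Nkx2-2, 0.09 for Dlx5 and 0.07 for both Hoxa6 and Hoxb7.

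A few members were set apart by a single array. A tested probe set stood apart when 1 array differed by 2-fold or more, in the same direction, from every other array on the floored scale, with no test. This held for 4 of 39 members (10.3%), against 7.53% of tested probe sets. Six2 stood above at 1 hr, at 2.22 times the next array, and Pax5 above at 6 hr, at 2.03 times the next. Hoxc5 lay below at 2 hr, with the next array 2.24 times higher, and Six4 below at 1 hr, with the next at least 2.23 times higher. None of the 11 tested forebrain probe sets was among them, a number too small to set against the share of 7.53%. Forebrain probe sets that were not tested did stand apart by the same measure. Dlx6 lay above at 4 hr, and Pou6f1 above at 6 hr through one probe set and below at 2 hr through another. With no filter on mean level the count of members apart was 19 of 126, against 9.58% of all. With the stricter filter at the 60th percentile it was 0 of 16, against 1.65%.

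Where at most 1 of the 4 values was under the floor, so that a lowest array could be named, the 2 hr array was the lowest for 32 of 67 member probe sets (47.8%). It was so for 11 of 21 Hox and 8 of 14 forebrain probe sets, against 29.8% of all non-control probe sets. Its median intensity was 173, against 198 to 204 on the other arrays, and 28.3% of its values were under the floor, against 23.4% to 24.7% on the others. After quantile normalization of the arrays the count was 21 of 65 (32.3%), against 23.7% of all, and after a shift to a common median it was 19 of 65 (29.2%), against 17.5%. Without the 2 hr array 52.4% of forebrain and 30.0% of Hox probe sets were steady, against 53.0% of all.

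Other transcription factors of the forebrain and their partners, outside these families, were steady wherever they stayed above the floor. Of 24 probe sets for 18 genes, 16 were above the floor on all 4 arrays and 16 of 16 of those were steady, against 75.8% of all such probe sets. A further 6, of Mef2c, Cux1, Prox1 and Zic1, crossed the floor, and 2 were under it throughout. Zic1 was under it at 1 hr and read 166, 257 and 231 later. The list was also brighter, with a median of probe set medians of 340, against 191 over all non-control probe sets and 71.3 for members. The part of level in the steady share was not tested. Neurod2 and Neurod6, basic helix-loop-helix factors of pyramidal neurons, read 1507, 1373, 1702 and 1347, and 957, 1274, 853 and 1008. Nr2f1, a nuclear receptor that grades cortex and hippocampus, read 1439, 1796, 1099 and 1020. Ldb1, the partner through which LIM homeodomain proteins form complexes, read 368, 368, 527 and 671. Of the 17 tested probe sets 4 had slopes above 0, and in limma 0 passed after adjustment and 2 had an unadjusted p under 0.05.

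Cofactors that bind DNA with Hox proteins were measured through 8 probe sets of 6 genes, and 4 were above the floor on all 4 arrays and steady. Pbx3, a partner of Hox and Meis proteins in brain, read 363, 493, 469 and 386, and 208, 235, 236 and 263. Another Pbx3 probe set was under the floor at 1 hr and read 244, 240.4 and 186 later. Meis2 read 163, 130, 182 and 116, while Meis1 was under the floor on all 4 arrays. Of the 5 cofactor probe sets tested, limma called 0 after adjustment and 0 at an unadjusted p under 0.05.

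The tissue label was set against marker genes. Of the CA1 pyramidal list, 5 of 10 genes had probe sets, and 6 of their 7 probe sets were above the floor on all 4 arrays and steady, Pou3f1 among them. Wfs1, a defining CA1 gene, read 1753, 2594, 2574 and 1668. Prox1, which defines dentate granule neurons, was under the floor at 2 and 4 hr and read 63.4 and 107 at 1 and 6 hr. Of the whole dentate list 3 of 7 probe sets (Dsp, Lct and Il16) were above the floor on all 4 arrays, of the CA3 list 3 of 4 (Bok, Nnat and Socs2) and of the thalamus list 7 of 10. The share over all non-control probe sets was 61.5%. Fezf2 and Tbr1, both also genes of deep neocortical layers, read 1558 to 2325 and 825 to 1135. Cux2, the other gene of the neocortex list with a probe set, was under the floor on all 4 arrays. No replicate exists to set any of these differences between hours against its error.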

How the data were processed

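Total RNA of 4 CA1 samples was measured on single-channel mouse oligonucleotide arrays. The authors deposited 1 linear intensity for each of 12488 probe sets and array, all above 0. The sources used here do not say how probe signals were summarised. The mean after trimming 2% of values at each end was 500.3 on each array, so a common scaling before deposit is read from the values. No detection calls were used, and the number of arrays limits the precision.

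Members and lists were chosen with earlier results of these data known. Symbols came from the platform annotation, and all 126 member probe sets matched a RefSeq gene of the same symbol by Entrez identifier (GRCm38.p6). The genes named were, in each list, up to 6 of highest mean and the 2 of widest range among tested members, members standing apart, the 3 smallest slope p in each direction, and Hox probe sets above the floor on all arrays. Pou3f3, Dlx1as, Pax1, Lhx3 and members at the floor were named outside this rule, with their values known.

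Values under 54.6 (25th percentile) were set to it and log2 was taken. The 7453 of 12422 non-control probe sets with a mean above the 40th percentile were tested. A line over the hours was fitted with limma 3.58.1 in R 4.3.3 (lmFit, eBayes; 2 residual degrees of freedom), two-sided, with Benjamini-Hochberg adjustment at 0.05. The fit was tested on simulated data. Folds that involve the floor are written as at least that size. Steady and standing-apart counts have no test. Alternatives covered normalization, floor, filter, each array left out, time scale, variance model, fold limits and probe sets per gene. Promoter windows were 250 bases before to 50 after each start; 33 member genes without a window in the table were not used there.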

Additional observations from a re-analysis of the deposited data

How the results depend on the processing

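The count of members past limma's adjusted threshold was 0, and so was that over all tested probe sets, under all 14 alternatives. No paired analysis was possible because each hour has 1 array. The slopes of Hoxa6, Hoxb7 and Dlx5 kept their direction under every alternative run, at 0.10 to 0.21, 0.13 to 0.25 and 0.053 to 0.26 log2 units per hr with single arrays left out. Leaving out single arrays moved that of Foxc2 to 0.068 (the only such fit in which it passed the filter), that of Nkx2-2 between -0.28 and 0.14 and that of Six2 between -0.42 and 0.076. Members standing apart numbered 4 of 39, and between 4 and 6 with single arrays left out. They numbered 19 of 126 with no filter and 0 of 16 with the filter at the 60th percentile. At a limit of 1.5-fold 14 of the 39 tested members stood apart, where the share over all tested probe sets was 21.4%. Steady forebrain probe sets, 7 of 21, became 4 with the floor at the 40th percentile and 4 at a limit of 1.5-fold, and 7 to 11 with single arrays left out. Steady Hox probe sets, 7 of 40, became 1 at a limit of 1.5-fold and 10 to 13 with single arrays left out, where fewer values have to lie close. Values under the floor moved with the floor by construction: to 14.3% and 17.5% for forebrain and Hox at the 10th percentile, and to 50% and 68.75% at the 40th. The forebrain share of steady probe sets was above the Hox share under each alternative run. The count of members lowest at 2 hr, 32 of 67, was 21 of 65 after quantile normalization and 19 of 65 after the median shift, both chosen after seeing the data. Without probe sets of suffix _f, _r or _s, also added later, 7 of 20 forebrain and 5 of 30 Hox probe sets were steady. With no detection calls, whether a value near the floor was above background is unknown.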
